A study of Mus musculus with 6 samples.

Results

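The genes described here encode the proteins of the cytosolic ribosome. They were taken from the gene table by name: symbols that begin with Rpl or Rps and a digit, together with Rplp0, Rplp1, Rplp2, Rpsa and Fau, leaving out the ribosomal S6 kinases (Rps6k) and rows marked as pseudogenes (-ps). The rule used no measured value. It found 89 of the 16281 genes in the table. Of these, 78 are core ribosomal proteins, 32 of the small and 46 of the large subunit, 10 are paralogs or further copies of a core protein, and 1, Rps19bp1, encodes a protein that binds Rps19 and is not a subunit. A ribosome term was given by the deposited gene ontology annotation for 85 of the 89, and the other 4 were Rpl36al, Rpl6l, Rps27rt and Rps19bp1.

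RNA was sequenced from CD8+ T cells, from spleen per the sample labels and from spleen and lymph nodes per the design text, of OT1 mice, that is C57BL/6 mice with the transgenic T cell receptor Tg(TcraTcrb)1100Mjb, which recognizes a peptide of ovalbumin. All cultures were activated for 48 h with anti-CD3 (2 μg/ml), anti-CD28 (2 μg/ml) and IL-2 (20 ng/ml) and were then expanded for 3 days with IL-2. The 3 GSK samples received GSK2879552 at 0.5 μM during activation and expansion, and the 3 Veh samples received vehicle. GSK2879552 inhibits LSD1 (Kdm1a), an enzyme that removes methyl groups from histone H3, and the comparison asks how RNA levels differ in cells grown with it. Each sample held between 18288447 and 19846720 counts. The 6 CD8 T cell markers in the table (Cd3d, Cd3e, Cd3g, Cd8a, Cd8b1 and Ptprc) lay between 234.6 and 2551 CPM (counts scaled to a common library size) in every sample. The table held 14 markers of CD4 T, B, myeloid, erythroid and platelet cells. They summed to between 18.2 and 24.5 CPM in Veh and between 19.6 and 22.8 CPM in GSK. The highest were Cd68 (7.406 to 10.93 CPM) and Cd79b (4.638 to 7.557 CPM), and Adgre1 and Pf4 were at or near 0. Cd22, Cd79a and Ms4a1 were higher in every GSK sample than in every Veh sample, and Cd79b and Itgam were lower. Cd22 had 0.2175, 0.5898 and 0.4202 CPM in Veh and 2.834, 2.681 and 2.293 CPM in GSK.

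A ribosome consists of a small subunit, which reads the mRNA, and a large subunit, which joins the amino acids, and most subunit proteins are present in 1 copy each. In vertebrates most of their mRNAs begin with a C followed by a run of pyrimidines, the 5′ terminal oligopyrimidine (TOP) tract, through which mTORC1 and the RNA-binding protein Larp1 control their translation. T cells make many ribosomes when they are activated, since growth and division depend on protein synthesis. RNA levels such as those measured here do not show how much of an mRNA is translated.

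The starts of 5 genes that the results below turn on are shown with their TOP-like tracts. Each line is the 40-base RefSeq promoter window on GRCm38.p6 from 20 bases before to 20 bases from the annotated start, read on the gene's own strand, and capitals mark the longest run of C and T that begins with C and has at least 5 bases.
Fau, chr19:6057927-6057966, plus strand: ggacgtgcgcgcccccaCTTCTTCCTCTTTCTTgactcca
Rpl38, chr11:114668560-114668599, plus strand: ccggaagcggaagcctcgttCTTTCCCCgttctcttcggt
Rps27, chr3:90213629-90213668, minus strand: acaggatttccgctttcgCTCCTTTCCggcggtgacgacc
Rps27l, chr9:66946066-66946105, plus strand: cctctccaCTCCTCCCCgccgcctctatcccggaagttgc
Rpl7l1, chr17:46782637-46782676, minus strand: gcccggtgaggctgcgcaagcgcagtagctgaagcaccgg
In Fau the run is 16 bases long and crosses the annotated start, in Rpl38 it is 8 bases long and begins at it, in Rps27 it is 9 bases long and begins 2 bases before it, and in Rps27l, at the first of its 2 listed starts, it is 9 bases long and ends before it. Rpl7l1 had no such run. The starts used for Rpl38 and Rps27l lie inside the gene spans given below, which begin at 114667818 and 66944624. The RefSeq table held such a window for 68 of the 89 genes, and 52 of them (76.5%) had a run in at least 1 window, against 52% of 12785 genes of the table and 49.9% of all 27025 genes with a window. The letters searched were C followed by at least 4 of C or T on the gene's strand. A match in so short and frequent a pattern is a description of the letters and not a measured TOP tract. Rpl29 and Rps27a, which also appear below, had no window.

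The cytosolic ribosomal protein genes differed little between GSK and Veh. The median log2 fold change (GSK over Veh) was -0.017 over the 87 genes with enough counts to be tested, beside -0.004 over all 11698 tested genes. Every one of the 78 core genes had an estimated difference within 10%, with log2 fold changes between -0.11 and 0.08, whereas 44.6% of all tested genes and 56.7% of the 2347 other tested genes at 100 CPM or more lay within 10%. The median absolute log2 fold change was 0.03 for the core genes, 0.17 for all tested genes and 0.12 for the other genes at 100 CPM or more. The sets differ in level, with a median of 803.2 CPM for the core genes, 33.18 CPM for all tested genes and 180.8 CPM for the other genes at 100 CPM or more. In a list of 9 other ribosome-linked and TOP mRNAs with a median of 980.8 CPM, 8 (88.9%) lay within 10%. These are descriptions of the lists, and no test was made of a list as a whole.

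None of the 87 genes was called at an adjusted p under 0.05 with a fold change over 1.5 by edgeR's quasi-likelihood test, and none by DESeq2. The same rule called 2.22% of all tested genes higher and 4.09% lower. At an unadjusted p under 0.05 there were 11 of the 87, beside 5026 of all 11698 tested genes. At the adjusted p alone, 2 were higher in GSK, the paralogs Rps27l and Rpl7l1, and 2 were lower, Fau and Rpl29, which is 2.3% in each direction against 16.6% of all tested genes higher and 15.5% lower. All 3 GSK samples lay above all 3 Veh samples for 8 of the 87 (9.2%, against 23.7% of all tested genes) and below them for 19 (21.8%, against 23% of all tested genes).

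More of the genes had a log2 fold change below 0 than above it, 59 against 28, and this split depended on the scaling and on single samples. It was 69 against 18 without GSK replicate 3 and 53 against 34 without Veh replicate 3. With upper-quartile factors it was 76 against 11, the median of the 87 genes was -0.05, the median of all tested genes was -0.04, and 12 genes passed the adjusted p as lower. With RLE factors, DESeq2's scaling, or TMM factors computed without these genes it was 59 against 28 again. The small subunit genes had a median of -0.02 and the large subunit genes of -0.01, with 1 gene of each lower at the adjusted p and none higher.

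The precision behind these values was high for most of the genes. The 95% interval of the difference lay wholly within 20% in either direction for 76 of the 78 core genes and wholly within 10% for 69. The exceptions to the wider bound were Rpl38 and Rps27a, whose intervals ran from -48.2% to 74.9% and from -40.8% to 71.4%. For these 2 genes a difference of the size used as the call threshold lies inside the interval of this comparison. The fit behind these intervals did not include the replicate number.

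**Figure D1:**
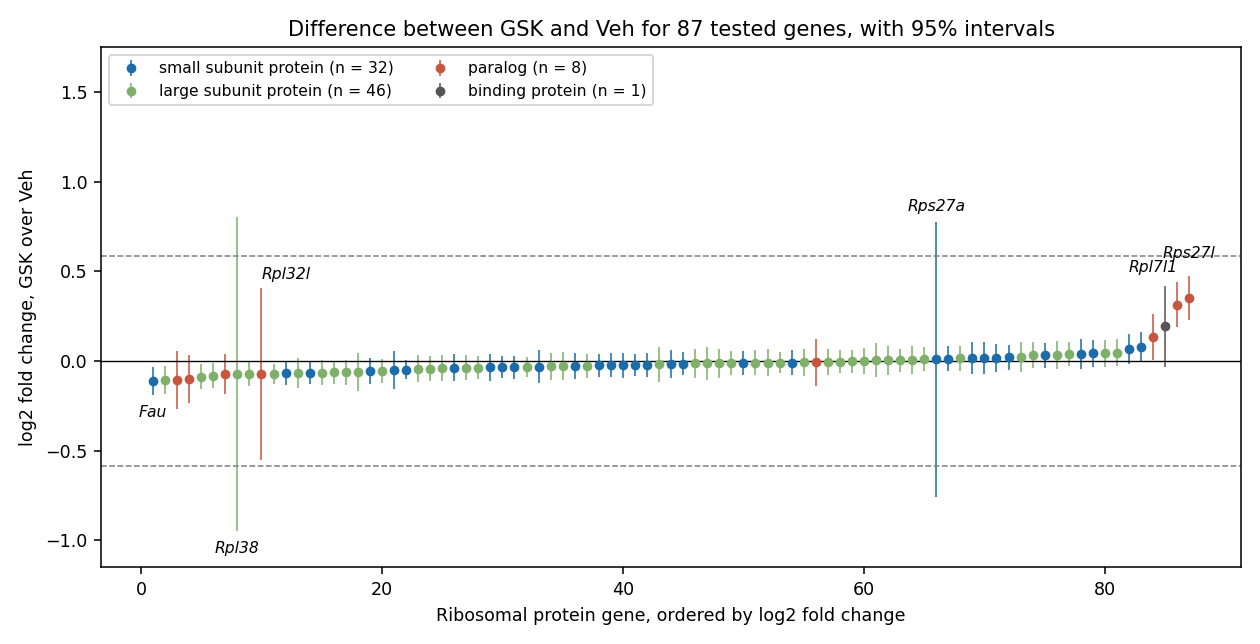
The log2 fold change (GSK over Veh, vertical axis) of each of the 87 tested genes, ordered from lowest to highest along the horizontal axis, with its 95% interval as a vertical bar and colors for the kind of protein. The dashed lines mark a 1.5-fold change. The points lie close to 0 except Rps27l and Rpl7l1 at the right end, and the long bars belong to Rpl38, Rps27a and the sparsely counted Rpl32l.

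As a share of all counts in a sample, the 89 genes together held 6.991%, 7.087% and 7.175% in Veh replicates 1 to 3 and 6.843%, 6.895% and 6.957% in GSK. The groups did not overlap, and the means were 7.08% ± 0.092 (SD, n = 3) and 6.90% ± 0.057, a difference of -0.19 percentage points. The share of the small subunit genes was 2.96% ± 0.039 in Veh and 2.89% ± 0.026 in GSK, and that of the large subunit genes was 4.06% ± 0.053 and 3.94% ± 0.028. Beside this, the 10 most counted genes outside the list held 4.93% ± 0.051 in Veh and 5.19% ± 0.098 in GSK. A share falls when other genes take more counts, and in bulk samples fewer cells of a type and less RNA per cell cannot be told apart. No p is given for the share, because it is a score over chosen genes.

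Among the core proteins of the small subunit, levels were high and close in the 2 groups. Rpsa, which is also known as the precursor of the laminin receptor, had 2965, 2922 and 2946 CPM in Veh and 2855, 2871 and 2824 CPM in GSK. All GSK values lay below all Veh values, by 3.20% (95% interval -6.78% to 0.521%), and the adjusted p was 0.17. Rps6, the substrate of the S6 kinases downstream of mTORC1, had 1345, 1348 and 1382 CPM in Veh and 1314, 1367 and 1330 CPM in GSK, and these values overlapped (log2 fold change -0.02, SE 0.030, adjusted p = 0.60). Rps4x, encoded on the X chromosome, had a log2 fold change of -0.03 (SE 0.029, adjusted p = 0.40). Rps12 had 632.3, 625.2 and 621.6 CPM in Veh and 640, 635.4 and 646.7 CPM in GSK. Its groups did not overlap, yet the difference was 2.30% (95% interval -2.59% to 7.43%) with an adjusted p of 0.48.

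Mutations of some ribosomal protein genes cause Diamond-Blackfan anemia, a failure of red cell production, and 15 of these genes were in the table. None passed the adjusted p, and their log2 fold changes lay between -0.05 and 0.08. Rps19, on chromosome 7 (GRCm38), had the highest log2 fold change of the core genes. It had 488.6, 504.5 and 519.1 CPM in Veh and 520.8, 529.8 and 549.4 CPM in GSK. The lowest GSK value lay just above the highest Veh value, and the log2 fold change was 0.08 (SE 0.038, adjusted p = 0.12).

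Fau was the small subunit gene that passed the adjusted p. It encodes a ubiquitin-like protein fused to a small subunit protein and lies at chr19:6057947-6059524 on the plus strand. It had 424, 428.3 and 432.2 CPM in Veh and 395.1, 389.5 and 404.6 CPM in GSK. The GSK samples were all lower than the Veh samples, and Fau fell by 7.43% (95% interval -12.3% to -2.28%, log2 fold change -0.11, SE 0.036, adjusted p = 0.032). The call did not hold when a sample was left out, except without GSK replicate 3 (adjusted p = 0.030). The adjusted p was 0.069, 0.085 and 0.10 without Veh replicates 1, 2 and 3 and 0.10 and 0.057 without GSK replicates 1 and 2. In a fit that also held the replicate number, Fau did not pass.

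In the large subunit, Rpl29 was the gene that passed. It lies at chr9:106428889-106431568 on the plus strand and had 399.4, 407.7 and 408.9 CPM in Veh and 369.8, 379.8 and 380.2 CPM in GSK. All GSK values lay below all Veh values, and Rpl29 fell by 7.09% (95% interval -12% to -1.90%, log2 fold change -0.11, SE 0.036, adjusted p = 0.040). Without Veh replicates 1, 2 and 3 the adjusted p was 0.073, 0.11 and 0.12, and without GSK replicates 1 and 3 it was 0.15 and 0.052, while without GSK replicate 2 it was 0.036. Rpl29 did not pass in a fit that also held the replicate number. The next genes by size were Rpl23a and Rpl7a. Rpl23a, which lies beside the tunnel through which the new protein leaves the ribosome, had 932.6, 940.3 and 957.5 CPM in Veh and 875.6, 895.6 and 895.8 CPM in GSK, without overlap. Its log2 fold change was -0.09 (SE 0.031) with an adjusted p of 0.052, which became 0.048 without GSK replicate 2. Rpl7a had 812.2, 834 and 837.4 CPM in Veh and 780.4, 784.2 and 782.2 CPM in GSK, again without overlap (log2 fold change -0.08, SE 0.032, adjusted p = 0.066).

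Levels were also compared per kilobase, by the median length of a gene's annotated coding transcripts. On this measure the highest of the 78 core genes were Rplp0 (3379 CPM per kb over the 6 samples), Rpl41 (2681) and Rpl3 (2594). The median was 1103 CPM per kb. Short annotated transcripts lower such a length and raise the level. For Rpl3 the length was 816 bases, although its coding transcripts held 1660 different stretches of 31 bases. The order under other lengths was not tested. Rpl3, which reaches close to the site where amino acids are joined, had 2144, 2167 and 2198 CPM in Veh and 2069, 2077 and 2049 CPM in GSK. All GSK values lay below all Veh values, with a log2 fold change of -0.07 (SE 0.027) and an adjusted p of 0.058. Rpl41, a very short protein, had 1394, 1397 and 1436 CPM in Veh and 1389, 1431 and 1422 CPM in GSK, which overlapped (difference 0.362%, 95% interval -4.03% to 4.95%). Rpl10 had a log2 fold change of 0.04 (SE 0.031, adjusted p = 0.37).

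The stalk of the large subunit, which recruits the elongation factors, is built from Rplp0, Rplp1 and Rplp2. Rplp0 had 2873, 2922 and 2960 CPM in Veh and 2855, 2859 and 2846 CPM in GSK, with all GSK values lower (log2 fold change -0.03, SE 0.026, adjusted p = 0.36). The log2 fold change was 0.04 for Rplp1 (SE 0.035, adjusted p = 0.38) and -0.01 for Rplp2 (SE 0.035, adjusted p = 0.88), and both overlapped between groups. Rpl5 and Rpl11 bind the 5S RNA and, when ribosome assembly is disturbed, the p53 regulator Mdm2. Rpl5 had 1455, 1462 and 1504 CPM in Veh and 1470, 1463 and 1479 CPM in GSK, a difference of -0.175% (95% interval -4.43% to 4.27%). Rpl11 differed by -0.356% (95% interval -5.28% to 4.83%).

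The paralogs behaved less evenly than the core genes. Of the 10 in the table, 8 had enough counts to be tested, and their log2 fold changes ran from -0.11 to 0.35. Together they held 0.0644% ± 0.0022 (SD, n = 3) of all counts in Veh and 0.0685% ± 0.0036 in GSK. The median paralog level was 84.55 CPM, against 803.2 CPM for the core genes, and their median SD between replicates was 0.08 on the log2 scale, against 0.02.

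Rps27l had the highest log2 fold change of all 87 genes. It encodes a near copy of the small subunit protein Rps27, is known as a target of p53, and lies at chr9:66944624-66949522 on the plus strand. It had 95.19, 107.2 and 104.3 CPM in Veh and 130.4, 123.9 and 137.2 CPM in GSK. Every GSK sample lay above every Veh sample, and Rps27l rose by 27.7% (95% interval 17.4% to 38.8%, log2 fold change 0.35, SE 0.056, adjusted p = 0.00053). Its core relative Rps27 had 436, 379.2 and 405.3 CPM in Veh and 381.6, 397.4 and 400.1 CPM in GSK, which overlapped (log2 fold change -0.05, SE 0.049, adjusted p = 0.47). Their annotated transcripts shared 0 stretches of 31 bases. Rps27rt, an intronless copy that shares 91.6% of its stretches with Rps27, had 23.66, 25.7 and 26.07 CPM in Veh and 22.42, 23.43 and 24.24 CPM in GSK (log2 fold change -0.11, SE 0.075, adjusted p = 0.31), and reads of the 2 genes could be split between them in the counting.

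Rpl7l1, related to Rpl7 and to a yeast factor that assembles the large subunit, lies at chr17:46773907-46782656 on the minus strand and overlaps the annotated gene Gm26904. It had 81.43, 87.81 and 79.93 CPM in Veh and 101.6, 97.57 and 110.7 CPM in GSK. The groups did not overlap, and Rpl7l1 rose by 24.3% (95% interval 14% to 35.6%, log2 fold change 0.31, SE 0.058, adjusted p = 0.0014). Rpl7 had 1413, 1388 and 1440 CPM in Veh and 1340, 1357 and 1364 CPM in GSK, all lower, with a log2 fold change of -0.06 (SE 0.030) and an adjusted p of 0.12. Rpl7l1 and Rpl7 shared 0 stretches of 31 bases.

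**Figure D2:**
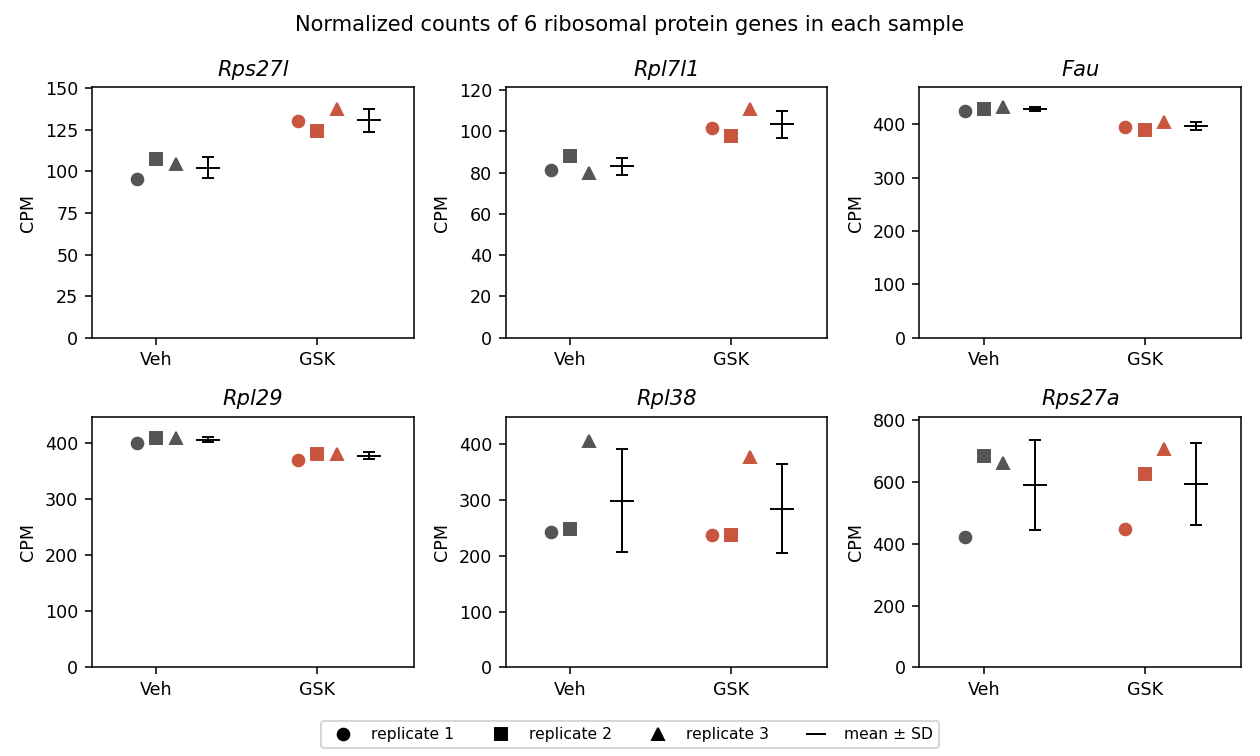
CPM of 6 genes in each of the 3 Veh (grey) and 3 GSK (red) samples, with a symbol for each replicate number and the group mean and SD as a black bar beside the points. The GSK points of Rps27l and Rpl7l1 lie above the Veh points and those of Fau and Rpl29 below them, while Rpl38 is high in replicate 3 of both groups and Rps27a is low in replicate 1 of both groups.

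Of the other paralogs none passed the test. Rpl36al, a second gene for the large subunit protein encoded by Rpl36a, had 152.6, 167.7 and 145.5 CPM in Veh and 164, 165.9 and 181.4 CPM in GSK, with overlap (log2 fold change 0.13, SE 0.058, adjusted p = 0.096, and 0.030 without Veh replicate 2). Rpl36a had a log2 fold change of -0.01 (SE 0.038, adjusted p = 0.82). Rpl22, an RNA-binding large subunit protein that is required for the development of αβ T cells, had 362.5, 365.3 and 369.8 CPM in Veh and 362.4, 351.9 and 362.1 CPM in GSK (log2 fold change -0.03, SE 0.037, adjusted p = 0.59). Its paralog Rpl22l1 had 77.24, 79.45 and 79.04 CPM in Veh and 71.82, 67.41 and 80.61 CPM in GSK. GSK replicate 3 was the highest of the 6 and the other GSK samples were the lowest (log2 fold change -0.10, SE 0.063, adjusted p = 0.24, and 0.032 without GSK replicate 3). Per kilobase, by median transcript lengths of 2048 and 538.5 bases, Rpl22 stood at 178.6 and Rpl22l1 at 145.9 CPM per kb in Veh.

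For the copies Rpl6l, Rpl32l and Rpl37rt the log2 fold change was -0.07, -0.07 and -0.01 in that order, with an adjusted p of 0.30, 0.83 and 0.95. None of these copies had a coding transcript in the GENCODE annotation. It lists Rpl32l as a processed pseudogene and Rpl37rt as a processed transcript. Rpl3l, a paralog of Rpl3 known from striated muscle, had 2, 2 and 1 counts in Veh and 2, 0 and 0 in GSK and was not tested. Rpl39l, a paralog of Rpl39 known from the testis, had 8, 4 and 22 counts in Veh and 0, 5 and 17 in GSK and was not tested either. Its highest count was in replicate 3 of both groups. Rpl39 itself had a log2 fold change of -0.07 (SE 0.039, adjusted p = 0.23). Rps19bp1, the binding protein of Rps19 that is also known as a regulator of Sirt1, had 11.42, 14 and 14.24 CPM in Veh and 15.17, 14.63 and 15.59 CPM in GSK, without overlap (log2 fold change 0.19, SE 0.10, adjusted p = 0.18).

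The replicate cultures differed little in these genes. The SD of log2 CPM within groups had a median of 0.03 over the 87 genes and 0.024 over the core genes. It was 0.06 for the other tested genes at 100 CPM or more and 0.09 for all tested genes. Those sets are less counted, with median levels of 180.8 and 33.18 CPM against 803.2 CPM for the core genes. The 9 other ribosome-linked and TOP mRNAs, with a median of 980.8 CPM, had a median SD of 0.029. The smallest SDs were those of Rpsa (0.011), Rps12 (0.013) and Rpl18 (0.014). Rpl18 had 822.3, 803.4 and 806.7 CPM in Veh and 802, 810.9 and 805 CPM in GSK.

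Rpl38 and Rps27a had the largest spread of the 87 genes, with SDs of 0.40 and 0.37. The next was the sparsely counted Rpl32l with 0.25, which had 2.67, 4.24 and 3 CPM in Veh and 3.31, 2.83 and 3.29 CPM in GSK. Among the 2428 tested genes at 100 CPM or more, Rpl38 ranked 3 and Rps27a ranked 6 by SD. Both are core proteins. Rpl38 is a large subunit protein needed for the translation of certain Hox mRNAs, and Rps27a is made as a fusion of ubiquitin to a small subunit protein and so is also a source of ubiquitin.

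Rpl38 lies at chr11:114667818-114672333 on the plus strand. It had 242.2, 249 and 405.6 CPM in Veh and 238.2, 238.2 and 377.1 CPM in GSK. Replicate 3 was high in both groups, at 1.65 times the mean of the other replicates in Veh and 1.58 times in GSK. Rps27a lies at chr11:29545842-29548040 on the minus strand and overlaps Clhc1. It had 420.8, 682.2 and 662.3 CPM in Veh and 446.2, 626.3 and 705.7 CPM in GSK. Here replicate 1 was low in both groups, at 0.626 times the mean of the others in Veh and 0.67 times in GSK. Both genes are on chromosome 11, but the samples that stood apart were different ones.

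Genes near them did not show the same pattern. Within 500 kb of Rpl38, the 2 tested genes with at least 10 CPM, Rab37 and Slc9a3r1, had replicate 3 at between 0.966 and 1.03 times the mean of the others. Within 500 kb of Rps27a, 5 such genes had replicate 1 at between 0.899 and 1.13 times. The sources do not say whether cultures with the same number came from the same mouse, and whether mouse, culture or library accounts for the values was not tested.

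The difference between GSK and Veh in these genes was small beside that spread. The log2 fold change of Rpl38 was -0.07 (SE 0.32, adjusted p = 0.89), and it lay between -0.33 without GSK replicate 3 and 0.21 without Veh replicate 3. That of Rps27a was 0.01 (SE 0.28, adjusted p = 0.98), between -0.18 without Veh replicate 1 and 0.18 without GSK replicate 1. Without these 2 genes the others held 6.99% ± 0.072 (SD, n = 3) of all counts in Veh and 6.81% ± 0.037 in GSK. Deviations from the group means of samples with the same number were correlated over the 87 genes with r = 0.56, -0.02 and 0.71 for replicates 1, 2 and 3. Over the other 85 genes the values were -0.36, -0.61 and -0.19, so the positive values rested on Rpl38 and Rps27a. These are correlations across genes, which are not independent, and the samples of a group share its mean.

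**Figure D3:**
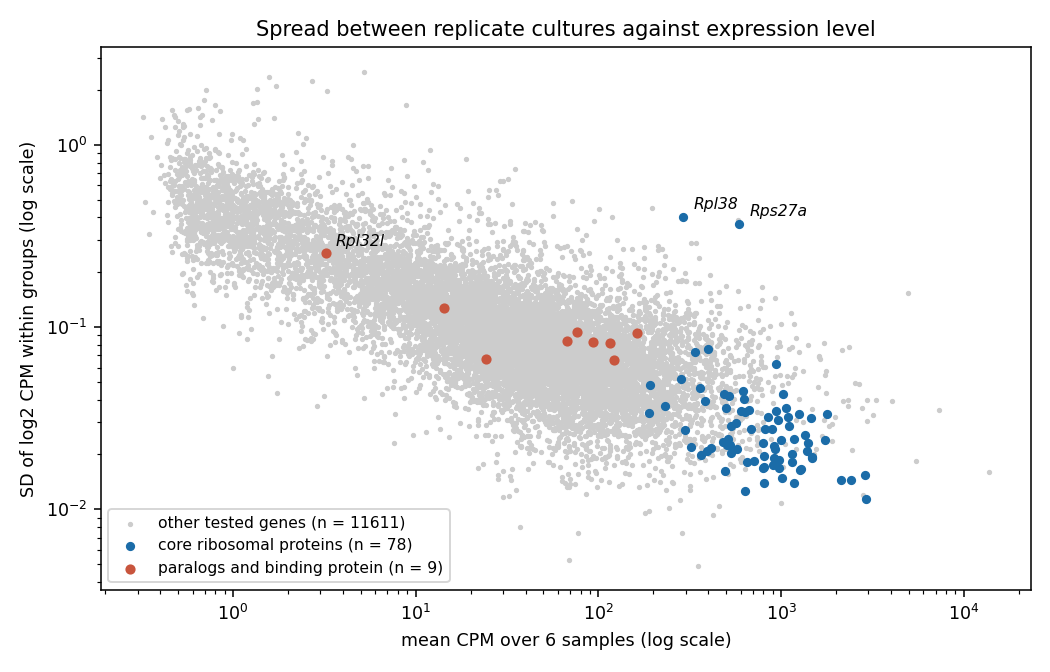
The SD of log2 CPM within groups (vertical, log scale) against mean CPM over the 6 samples (horizontal, log scale) for every tested gene, with core ribosomal proteins in blue and the paralogs and binding protein in red. Most blue points lie at the lower edge of the cloud at their level, and Rpl38 and Rps27a, with SDs of 0.40 and 0.37, lie at its top.

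Genes that build and use ribosomes but are not subunits formed other lists, whose counts at the adjusted p stand beside the 16.6% of all tested genes that were higher and the 15.5% that were lower at the same threshold. Of 62 tested ribosome biogenesis genes, 55 rose and none fell at the adjusted p by edgeR and 6 of them were past the 1.5-fold threshold. DESeq2 gave 53 higher and 0 lower. By edgeR 57 of the 62 had an unadjusted p under 0.05, beside 5026 of all 11698 tested genes. The median log2 fold change was 0.38. The largest changes were those of Rrp9, a protein of the particle that processes ribosomal RNA, with 31.87, 35.51 and 33.42 CPM in Veh and 55.81, 52.23 and 63.82 CPM in GSK (log2 fold change 0.77, SE 0.078, adjusted p = 2.5e-05), and Gnl3 (nucleostemin), with 65.65, 70.81 and 53.92 CPM in Veh and 104.1, 94.39 and 110.7 CPM in GSK (0.70, SE 0.099, adjusted p = 0.0011). The smallest changes that passed were those of Rrp1 (0.16) and Nop10 (0.20). Across the samples left out in turn the number that rose lay between 48 and 56, with none lower.

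Mitochondrial ribosomal proteins, which build the separate ribosome of the mitochondrion, had a median log2 fold change of 0.16 over 78 genes, with 28 higher and none lower by edgeR. DESeq2 gave 20 higher and 0 lower. By edgeR 39 of the 78 had an unadjusted p under 0.05, beside 5026 of all 11698 tested genes. Mrpl16 (0.38, SE 0.081, adjusted p = 0.0035) and Mrpl22 (0.37, SE 0.082, adjusted p = 0.0048) were highest, and Mrps23 (0.16) and Mrpl15 (0.17) were the lowest of those that passed. The number depended on single samples, being 14 and 17 without Veh replicates 1 and 3, 18 and 13 without GSK replicates 1 and 3, and 25 and 32 without replicate 2 of Veh and of GSK. The lowest of these, 13 of 78, came from a fit with a sample left out. The 16.6% of all tested genes that were higher came from all 6 samples, so the 2 cannot be compared directly. The genes together held 0.309% ± 0.0067 (SD, n = 3) of all counts in Veh and 0.337% ± 0.011 in GSK.

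**Figure D4:**
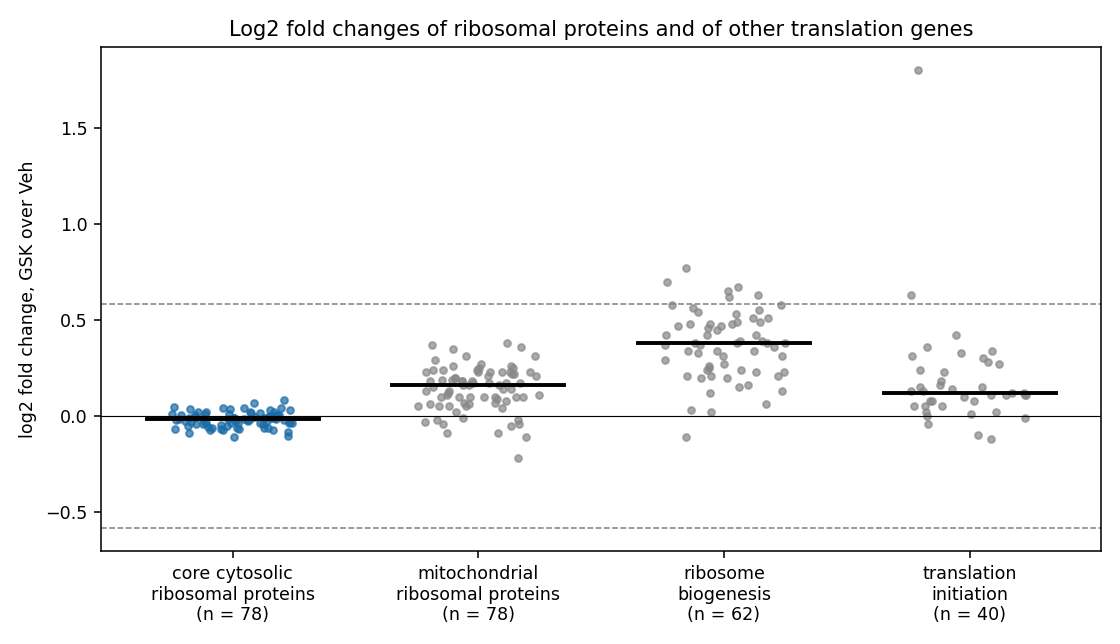
Log2 fold changes (GSK over Veh) of the 78 core cytosolic ribosomal proteins (blue) and of mitochondrial ribosomal protein, ribosome biogenesis and translation initiation genes (grey), with a point for each gene, a black bar for the median and dashed lines at a 1.5-fold change. The core proteins lie in a narrow band around a median of -0.02, and the medians of the other lists are 0.16, 0.38 and 0.12.

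Of 40 translation initiation factors, 16 rose and none fell by edgeR, with a median log2 fold change of 0.12. In the same edgeR fit 16.6% of all tested genes were higher. DESeq2 gave 14 higher and 0 lower. By edgeR 24 had an unadjusted p under 0.05, beside 5026 of all 11698 tested genes. Without GSK replicate 2, 22 rose, and the share of all tested genes in that fit is not given here. Eif2b3 (0.63, SE 0.071, adjusted p = 5.3e-05), a subunit of the factor that reloads Eif2 with GTP, and Eif1a (0.42, SE 0.058, adjusted p = 0.00021) rose most, and Eif3a (0.11) and Eif2b2 (0.15) were the lowest of those that passed. The point above these in the plot of fold changes by list is Eif3j2, which had 1.47, 2.52 and 2.31 CPM in Veh and 12.8, 5.72 and 3.44 CPM in GSK (adjusted p = 0.064). In a list of 13 genes named for or linked to elongation and termination, not all of them factors, 5 rose. Among these were Eef1e1 (0.55) and Abce1 (0.42), of which Abce1 recycles ribosomes. In the same list 2 fell, Eef2 (-0.07) and its kinase Eef2k (-0.23). The share that fell was near the 15.5% of all tested genes. The number that fell was 0 by DESeq2, 1 without Veh replicate 1 or GSK replicate 2 and 0 without any other sample. Neither Eef2 nor Eef2k passed in edgeR with the replicate number in the fit.

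Rack1, Tpt1, Naca and other abundant mRNAs linked to the ribosome or known to carry a TOP tract formed a list of 9 genes. Vim, the intermediate filament protein, rose (0.25, SE 0.028, adjusted p = 5.6e-05), and Hnrnpa1, an RNA-binding protein, fell (-0.09, SE 0.032, adjusted p = 0.038). The call for Hnrnpa1 was absent by DESeq2, without the filter on low counts and in edgeR with the replicate number in the fit. When samples were left out it held only without GSK replicate 3. The median of the 9 was 0.02. Rack1, a protein bound to the small subunit, had a log2 fold change of 0.01 (SE 0.029, adjusted p = 0.74).

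Of 23 genes of mTORC1 signaling and TOP mRNA control, 5 rose and 4 fell, shares near the 16.6% and 15.5% of all tested genes, and the number that fell was 8 without GSK replicate 2. Larp4 and Sesn2 had the highest log2 fold changes (0.42 each, SE 0.052 and 0.076) and Ddit4 (-0.70, SE 0.044) and Sesn1 (-0.60, SE 0.065) the lowest. Ddit4, Sesn1 and Sesn2 are known as inhibitors of mTORC1. Larp1, which binds the TOP tract, had 546.3, 580.8 and 519.2 CPM in Veh and 710, 687.3 and 727 CPM in GSK and rose (0.37, SE 0.043, adjusted p = 7e-05). Of 17 chaperones and modifiers of ribosomal proteins, 5 rose, beside 16.6% of all tested genes, led by Grwd1 (0.65) and Heatr3 (0.45), both carriers of newly made ribosomal proteins, of which Grwd1 is also counted among the biogenesis genes, and 1, Riox2, fell, beside 15.5% of all tested genes (-0.18, SE 0.048, adjusted p = 0.012), a call that did not hold without Veh replicate 3 or GSK replicate 1.

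Many ribosomal protein mRNAs resemble pseudogenes, and this limits the counts. Over the 86 genes with coding transcripts in GENCODE, a median of 42.7% of the 31-base stretches of a gene also occurred in another annotated gene. The range was from 0 to 94.1%, and 29 genes had more than 50%. The share was 38.5% for Fau, 44.5% for Rpl29, 22.9% for Rps27l, 17% for Rpl7l1, 31.6% for Rpl38 and 50.5% for Rps27a. Besides small RNA genes, which overlapped 32 of the 89, 24 overlapped another annotated gene. The 8 pseudogene rows of the same names that were in the table held 0.00238% of all counts in Veh and 0.00227% in GSK. This share leaves out pseudogenes with other names, such as Gm9843, Gm6344 and Gm8430, which shared the most stretches with Fau, Rpl29 and Rps27a in that order.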

How the data were processed

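RNA of 6 cultures was sequenced, 3 Veh and 3 GSK. The authors aligned the reads against GRCm38 (HISAT2) and assigned them to genes (HTSeq), and the deposited values are raw counts per gene with annotation columns. Per the submitters' processing notes, the versions were HISAT2 2.1.0 and HTSeq 0.11.2. The annotation release and strand setting are not given in the sources used here, so counts of overlapping genes and of near-identical copies are uncertain. The study's methods name 3 separate mice and do not say whether same-numbered cultures share a mouse, so the replicate number was a block only in an alternative.

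Groups were compared in R 4.3.3 with edgeR 4.0.16, by the robust quasi-likelihood test with TMM factors, filterByExpr and Benjamini-Hochberg adjustment over all 11698 tested genes. A call needed a fold change over 1.5 at an adjusted p under 0.05. SEs came from the test statistic, and intervals are at 95%. SDs between replicates used log2 CPM with a prior count of 2. Every test used the 6 samples, and the code was tested on simulated data. DESeq2 1.42.0, other scalings and filters, the replicate block and leaving out each sample were alternatives. Coordinates are GRCm38. Transcript lengths, which are medians over a gene's coding transcripts, and shared stretches come from GENCODE M21, and starts from RefSeq.

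The genes, the lists and the tests were chosen with earlier results of these data known. The genes named were any called gene, the 6 highest and 6 lowest log2 fold changes with a mean count of at least 50, the 3 highest levels per kilobase, the 3 largest and 3 smallest SDs, set members by role, and the 2 highest and 2 lowest of each other list past the adjusted p. Eif3j2, Larp1, Rack1, Tpt1 and Naca were named after their values were seen. A gene that the rule names is not reported here. Of the genes set by role, Rpl10l and Rps4l were not analysed here, nor were the snoRNA host genes of a further list.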

Additional observations from a re-analysis of the deposited data

How the results depend on the processing

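No cytosolic ribosomal protein gene was called at a 1.5-fold change under any of the 15 alternatives, while 4 passed at the adjusted p alone. The paralogs Rps27l and Rpl7l1 passed the adjusted p under all 15, with values up to 0.006 and 0.012, and Rpl36al joined them without Veh replicate 2. The number lower at the adjusted p alone, 2 in the report, was 12 with upper-quartile factors, 1 without a filter on low counts, 4 with a filter at 1 CPM in 3 samples, and 0 to 2 when a sample was left out. Fau passed in 8 and Rpl29 in 7 of the 15. The median log2 fold change was -0.052 with upper-quartile factors and between -0.025 and -0.012 with a sample left out, and the number of core genes within 10% lay between 76 and 78. With the replicate number as a block, the number lower was 0 in edgeR and 0 in DESeq2, and the other translation lists held 111 genes past the adjusted p in edgeR and 77 in DESeq2, against 122 in the report and 95 to 137 with a sample left out. In edgeR with the block the adjusted p was 0.069 for Fau and 0.08 for Rpl29, so neither passed, and Hnrnpa1, Eef2 and Eef2k did not pass either. Rpl38 had a log2 fold change of -0.06 (adjusted p = 0.31) and Rps27a of 0.02 (adjusted p = 0.82) in that fit. The fit of DESeq2 with the block was chosen after seeing the data. Over all tested genes, deviations of same-numbered samples correlated at -0.052, -0.081 and 0.16. This cannot tell whether the samples are paired, because a deviation can come from mouse, culture or library. The samples were left unpaired in the report because the sources do not pair them. The difference in the share of counts lay between -0.233 and -0.140 percentage points and the median SD between 0.024 and 0.028 with a sample left out. With 3 samples per group, no sample could be tested as standing apart. Counts of 0 to 22 for Rpl3l and Rpl39l were too low to compare.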
